A study of Mus musculus with 2 samples.

Results

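The suppressors of cytokine signalling (SOCS) were measured in sorted T cells of the mouse spleen, as all 8 genes of the family (Cish and Socs1 to Socs7). Their probes were taken as every non-control probe whose transcript accession belongs to one of these genes. This gave 10 probes, of 41170 different probes read for the whole array, and 8 genes of 17176 named. The cells were CD4+ helper and CD8+ cytotoxic T cells, which per the labels came by cell sorting from the spleens of wild-type mice of strain C57B6, with no treatment named. Each group was 1 one-colour Agilent array of total RNA, both on the same slide, and values are said to be in CD4+ cells or in CD8+ cells for short. The sources used here give neither the age and number of the mice nor the antibodies of the sort. With 1 array per cell type there was no spread between animals and no test between the groups, so each difference describes these 2 arrays.

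SOCS proteins are the feedback brake of cytokine receptors that signal through JAK kinases and STAT transcription factors. A cytokine brings JAK kinases together, these phosphorylate the receptor and the STATs, and the STATs then switch on SOCS genes. Each SOCS protein binds phosphorylated tyrosines through an SH2 domain and, through its C-terminal SOCS box, joins elongins and cullin 5 in a ubiquitin ligase that marks the bound protein for degradation. SOCS1 and SOCS3 also carry a short region that blocks JAK kinases directly. In T cells SOCS1 is known for restraining interferon gamma and gamma chain cytokines, SOCS3 for restraining receptors that use gp130, and CIS, the product of Cish, as a target of STAT5 that is induced by interleukin 2.

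The family split in these arrays. Socs2 was 7.63-fold and Cish 4.89-fold higher in CD4+ cells, while Socs1, Socs3, Socs4, Socs5 and Socs6 differed by at most 1.25-fold in either direction. Socs7 was not well above background on either array. In bulk RNA of this kind, fewer cells of a type and less RNA per cell cannot be told apart.

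The promoters of Cish, Socs1, Socs3 and Socs4, the only members with an entry in the RefSeq promoter table used (4 entries, build GRCm38.p6), are shown because STATs bind a short palindrome, the GAS element, in the genes they induce. Each stretch runs 5′ to 3′ along the gene's strand from 160 bases before the annotated transcript start to 20 bases after it, with matches to TTCNNNGAA in capitals. The stretches are chr9:107296499-107296678 (+ strand) for Cish, chr16:10785517-10785696 (- strand) for Socs1, chr11:117969347-117969526 (- strand) for Socs3 and chr14:47276760-47276939 (+ strand) for Socs4.
Cish: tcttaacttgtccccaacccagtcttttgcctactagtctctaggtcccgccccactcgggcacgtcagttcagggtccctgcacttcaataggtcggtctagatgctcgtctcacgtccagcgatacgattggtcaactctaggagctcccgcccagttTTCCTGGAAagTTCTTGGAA
Socs1: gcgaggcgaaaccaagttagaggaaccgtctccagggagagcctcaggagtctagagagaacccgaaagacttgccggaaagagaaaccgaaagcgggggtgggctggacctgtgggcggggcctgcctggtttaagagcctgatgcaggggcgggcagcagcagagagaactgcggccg
Socs3: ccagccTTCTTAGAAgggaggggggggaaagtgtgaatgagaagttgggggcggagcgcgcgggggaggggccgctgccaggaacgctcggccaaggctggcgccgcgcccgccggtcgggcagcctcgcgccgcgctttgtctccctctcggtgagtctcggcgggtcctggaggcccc
Socs4: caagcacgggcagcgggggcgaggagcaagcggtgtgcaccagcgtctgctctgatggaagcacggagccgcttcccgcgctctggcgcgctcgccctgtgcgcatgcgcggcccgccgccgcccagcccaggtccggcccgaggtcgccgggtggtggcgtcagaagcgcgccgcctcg

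The letters TTCNNNGAA were searched from 250 bases before to 50 bases after each start, and they read the same on both strands. The Cish window held 2 matches, TTCCTGGAA at bases 1 to 9 and TTCTTGGAA at bases 12 to 20 of the annotated transcript. The Socs3 window held 1, TTCTTAGAA, from 154 to 146 bases before the start, and the windows of Socs1 and Socs4 held none. Of all 32851 windows of this length, 8.30% had at least 1 match and 0.457% at least 2. The same half-sites around a spacer of 4 bases in place of 3 matched in none of these 4 windows and in 6.95% of all windows. A match is a run of letters and does not show that a STAT was bound there.

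Levels are given as the processed signal of the spot, in the linear units of the scanner, with the error that the scanner software estimates for that spot. This error is technical and holds nothing of the spread between mice. Differences are log2 values of CD8+ minus CD4+ cells after each array was scaled to its 75th percentile, a signal of 508 in CD4+ cells and 449.9 in CD8+ cells. Probes of the same gene gave log2 differences with an SD of 0.23 (over 3972 genes), and spots of the same probe with an SD of 0.16 (over 158 probes). Signals of different probes depend on the probe and were not set against each other, apart from the summed levels of the marker lists.

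On both arrays 11957 genes were well above background, of which 458 (3.83%) reached 2-fold towards CD4+ cells and 232 (1.94%) towards CD8+ cells. When medians were used for scaling, the median of all these genes moved by 0.14 and the counts were 366 and 320. Of the 7 SOCS genes measured on both arrays, 2 (28.6%) were at least 2-fold higher in CD4+ cells and 0 in CD8+ cells. At 4-fold the same 2 genes passed, beside 0.928% of all genes towards CD4+ and 0.418% towards CD8+ cells. The median difference of the 7 was 0.06, beside 0.02 for all genes.

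**Figure D1:**
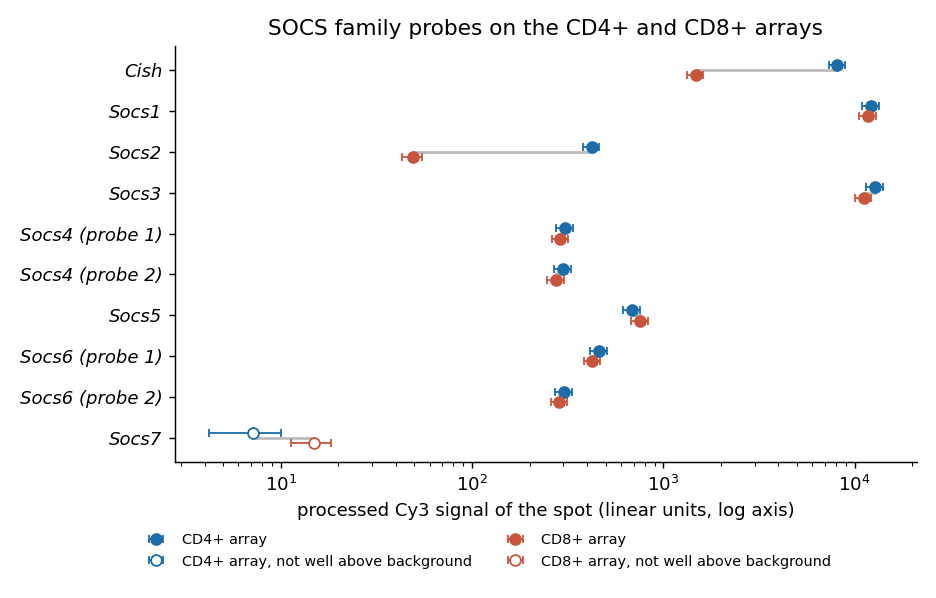
Processed Cy3 signal of each SOCS probe (log axis) on the CD4+ array (blue) and the CD8+ array (red), with the scanner software's error as bars and open circles for spots not well above background. The pairs of Cish and Socs2 lie apart, the pairs of Socs1, Socs3, Socs4, Socs5 and Socs6 overlap, and both Socs7 spots are dim; positions are to be compared within a probe only.

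Cish encodes CIS, the founding member of the family, which binds STAT5 docking sites on activated cytokine receptors and is known in T cells as a brake on signalling after antigen. Its 1 probe (transcript NM_009895) had a processed signal of 8146 ± 815 in CD4+ cells and 1475 ± 148 in CD8+ cells. Cish was bright on both arrays, and the CD4+ signal was the higher. The log2 difference of -2.29 (software error 0.20) is 4.89-fold and 9.89 times the between-probe SD. Counted from the gene with the largest difference towards CD4+ cells, Cish stood at place 74 of 11957, in the outermost 0.62%.

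Socs2 encodes a relative of CIS that is best known for restraining growth hormone signalling and is also induced through STAT5. Its 1 probe (NM_007706) had a processed signal of 422 ± 42.3 in CD4+ cells and 48.9 ± 5.91 in CD8+ cells. The CD8+ spot was dim but well above background, where the lowest such signal on that array was 14.7. The log2 difference was -2.93 (software error 0.23), or 7.63-fold, and it put Socs2 at place 26 of 11957. Its size depends on the background correction, and the median pixel signal of the CD8+ spot was 86 over a local background of 55.5. With normexp background correction of the median signal Socs2 was 3.85-fold higher in CD4+ cells, and with the authors' series values, which hold no background subtraction, 4.53-fold. Cish had 4.50-fold and 4.56-fold under these 2 settings, so Socs2 had the smaller difference of the pair under both, and the larger one in the other settings that measured it.

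**Figure D2:**
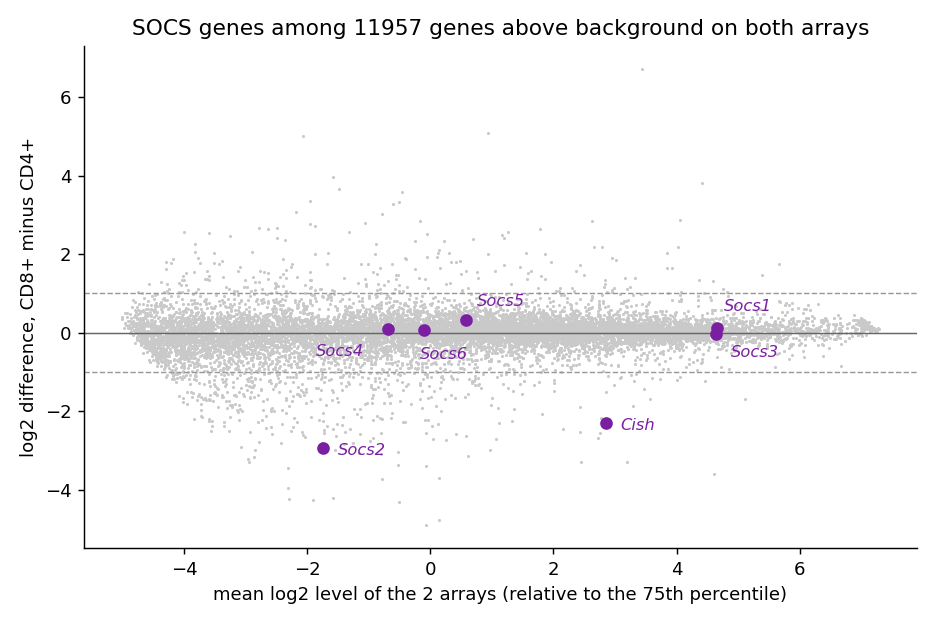
The log2 difference (CD8+ minus CD4+ array) of the 11957 genes measured on both arrays against their mean log2 level relative to the 75th percentile, with SOCS genes in purple and dashed lines at 2-fold. Cish at -2.29 and Socs2 at -2.93 lie below the lower 2-fold line, at places 74 and 26 of 11957 counted from the CD4+ side. The other 5 lie between the 2-fold lines.

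SOCS1 and SOCS3 are the members that block JAK kinases directly. The Socs1 probe (NM_009896) had a processed signal of 12209 ± 1221 in CD4+ cells and 11785 ± 1178 in CD8+ cells. The Socs3 probe (NM_007707) had 12779 ± 1278 and 11144 ± 1114. Both spots were bright on both arrays without being saturated, and the error ranges of the arrays overlapped. After scaling, the log2 difference was 0.13 for Socs1 and -0.02 for Socs3, each with a software error of 0.20. Both are smaller than the between-probe SD of 0.23, and that of Socs3 became 0.12 with the median as the scaling point.

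SOCS4 and SOCS5 form a pair with long N-terminal regions and are known for acting on the epidermal growth factor receptor, and SOCS5 also for binding the interleukin 4 receptor. Socs4 had 2 probes (NM_080843). The first gave 306 ± 30.8 in CD4+ cells and 289.6 ± 29.1 in CD8+ cells. The second gave 298 ± 30.0 and 273.7 ± 27.6. The log2 differences of 0.09 and 0.05 were 0.04 apart, less than the between-probe SD. The Socs5 probe (NM_019654) gave 684 ± 68.5 in CD4+ cells and 754 ± 75.4 in CD8+ cells. Its log2 difference of 0.32 (1.25-fold) was the largest of the family towards CD8+ cells and 1.37 times the between-probe SD, and 85.1% of all genes had a lower or equal value.

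SOCS6 and SOCS7 form the other pair with long N-terminal regions and are known for binding signalling molecules of the insulin receptor. Socs6 had 2 probes (NM_018821), with 461 ± 46.2 and 303 ± 30.4 in CD4+ cells and 426 ± 42.7 and 286 ± 28.8 in CD8+ cells. The log2 differences were 0.06 and 0.09, again within the between-probe SD. The Socs7 probe (NM_138657) gave 7.12 ± 2.91 in CD4+ cells and 14.9 ± 3.53 in CD8+ cells. Neither spot was well above background, so Socs7 has no fold here.

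**Figure D3:**
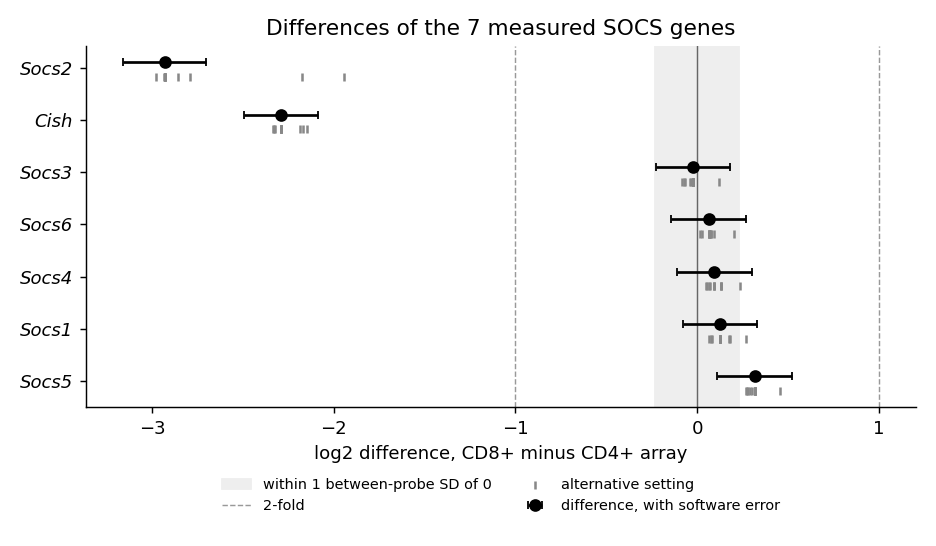
Log2 difference (CD8+ minus CD4+ array) of the 7 SOCS genes measured on both arrays, with the scanner software's error as bars, the values under other processing settings as grey ticks, 2-fold as dashed lines and the between-probe SD of 0.23 as the grey band. Socs2 and Cish lie beyond 2-fold under all settings plotted, the black points of Socs1, Socs3, Socs4 and Socs6 lie in the band, and that of Socs5 lies just outside it.

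Ordered by difference, the genes ran from Socs2 (-2.93) and Cish (-2.29) over Socs3 (-0.02), Socs6 (0.06), Socs4 (0.09) and Socs1 (0.13) to Socs5 (0.32). Of these, 4 lay within the between-probe SD of 0, and neighbours from Socs3 to Socs5 in this order were no further apart than that SD. No gene of the family lay between Cish and Socs3, a gap of over 2 log2 units.

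The receptors and kinases that SOCS proteins act on were described from lists of pathway genes, counting a gene at or beyond 2-fold. A gene well above background on 1 array only is given as "at least" the fold between its bright level and the higher of its dim level and the lowest level above background on the dim array. A list median takes such a gene at its bound unless said otherwise. Over all 13058 genes above background on at least 1 array, 4.66% were 2-fold higher in CD4+ cells and 2.21% in CD8+ cells by this count. The list medians of the STATs, the gp130, interleukin 10 and interferon receptors, the ubiquitin ligase partners, the other SOCS box proteins and the other inhibitors changed sign under at least 1 other setting and so have no settled direction.

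JAK kinases and STATs differed little. Of the 4 JAK genes 0 passed 2-fold in either direction, with a median of 0.22. Tyk2, the kinase of interferon and interleukin 12 receptors, had the largest log2 difference at 0.50, followed by Jak1 at 0.23 and Jak3, the partner of the common gamma chain, at 0.20. Of the 7 STAT genes also 0 passed, with a median of 0.07, or -0.03 under normexp and for the series values. Stat4, which acts downstream of interleukin 12, was 1.76-fold higher in CD8+ cells, with signals of 3458 in CD4+ and 5387 in CD8+ cells. For the factors that induce Cish and Socs2, Stat5a differed by 0.07 and Stat5b by -0.26. Stat2, which serves type I interferons, differed by -0.18.

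Of the 8 receptor chains of the gamma chain cytokines, 1 was at least 2-fold higher in CD4+ cells and 0 in CD8+ cells, with a median of 0.16, or 0.24 over the 6 measured on both arrays. That gene was Il2ra, which encodes the chain that gives the interleukin 2 receptor its high affinity. Its signal was 133 in CD4+ cells and 3.26, not well above background, in CD8+ cells, at least 8.01-fold apart. With normexp the bound was at least 2.48-fold. The second Il2ra probe, also above background in CD4+ cells alone, gave a bound of -0.60 on the log2 difference. The signalling chains of the same receptor lay within 2-fold and on the other side, Il2rb at 0.47 and Il2rg at 0.34.

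Of 13 receptor chains of the gp130, interleukin 10 and interferon families with a probe, 12 were above background, 1 was 2-fold higher in CD4+ cells and 0 in CD8+ cells, with a median of -0.06. Lifr, the receptor chain of leukaemia inhibitory factor, was 2.32-fold higher at low signals of 55.3 and 21.1, and 1.28-fold with normexp. Il27ra differed by 0.68 and Ifngr2 by -0.51. The list of hormone and growth factor receptors, which also holds the adaptor gene Irs1, had 12 genes with a probe. Of these, 9 were above background and 1 passed 2-fold in CD4+ cells by its bound. The median was -0.24, or -0.19 over the 8 measured on both arrays. Egfr, the receptor of epidermal growth factor, was at least 2.63-fold higher at a signal of 43.7, or at least 1.35-fold with normexp, while Flt3 differed by -0.99 and the insulin-like growth factor receptor gene Igf1r by -0.77. Ghr, the growth hormone receptor through which SOCS2 is best known, was not well above background on either array.

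Among 13 cytokine genes with a probe, 6 were above background on both arrays, and of these 2 were 2-fold higher in CD4+ cells and 0 in CD8+ cells, with a median difference of -0.20. A further 4 were above background in CD4+ cells alone and could differ only in that direction, 3 of them by a bound of 2-fold or more. With these 4 at their bounds the median was -0.78. Il4, a helper cytokine that signals through STAT6, was at least 29.6-fold higher with signals of 493 and 4.41. Il10 was at least 3.73-fold, Ifng, encoding interferon gamma, 3.21-fold, Il2, the cytokine that activates STAT5 in T cells, 2.86-fold and Il21 at least 2.50-fold higher. Under normexp, and likewise with the series values, 2 of the 5 passed 2-fold, Il4 (at least 6.82-fold with normexp) and Ifng (2.82-fold). Il2 rested on dim spots (78.6 and 23.9), and its second probe gave a log2 difference of -0.23.

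**Figure D4:**
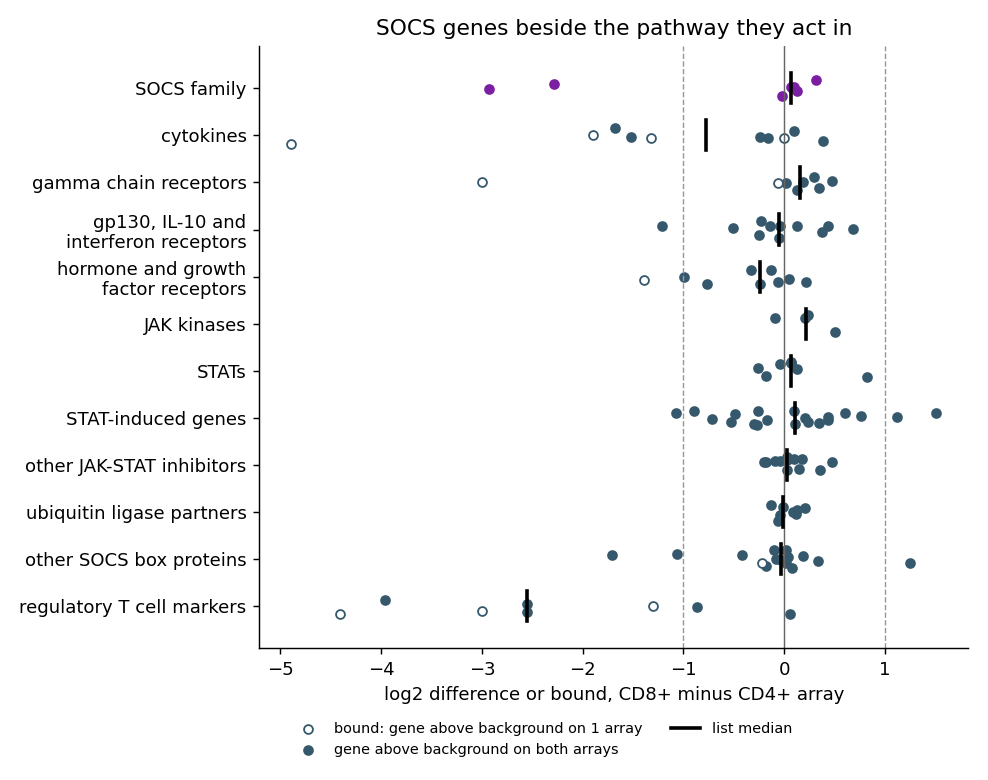
Log2 difference (CD8+ minus CD4+ array) of each gene above background in the SOCS family (purple), in 10 lists of pathway genes and in the regulatory T cell markers, with open circles for bounds, black bars for list medians (bounds taken at their value) and dashed lines at 2-fold. JAK kinases, STATs, ubiquitin ligase partners and the other inhibitors lie within 2-fold. Each other pathway list and the regulatory T cell markers reach beyond 2-fold on the CD4+ side, in part by bounds that could lie on that side only. The STAT-induced genes and the other SOCS box proteins reach beyond 2-fold on the CD8+ side too. Il2ra is plotted in 2 lists, the gamma chain receptors and the regulatory T cell markers.

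The list of genes known to be induced by STATs, which was not split by STAT, held differences in both directions. All 20 genes of the list were above background on both arrays. Of these, 2 were 2-fold higher in CD8+ cells and 1 in CD4+ cells, and the median was 0.10. Whether targets of STAT5 differ as Cish and Socs2 do was not tested. Pim2, a survival kinase, was 2.84-fold higher in CD8+ cells with signals of 906 and 2280, opposite in direction to Cish. Il18rap, a chain of the interleukin 18 receptor, was 2.17-fold higher there too (1.54-fold with normexp). Gata3, the transcription factor of helper type 2 cells, was 2.11-fold higher in CD4+ cells, with a log2 difference of -0.94 under median scaling. Pim1, another kinase gene induced through STAT5, differed by -0.72, Bcl2 by 0.10 and Myc by 0.43, the last 3 named after their values were seen.

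The list of ubiquitin ligase partners was measured at like levels on both arrays. It covers the ligase that the SOCS box recruits and also holds genes outside it, such as Cul2. Of the 9 genes of the list 0 passed 2-fold, and the median was -0.02. Elob and Eloc, the elongins that hold the SOCS box, differed by -0.04 and -0.13, and the scaffold gene Cul5 by 0.13. The largest difference was 0.21, of Arih2, a ligase that works with cullin 5. The small values of Eloc and Cul5 have no settled direction, since Eloc turned positive with median scaling and Cul5 turned negative with the mean over its probes or its second probe.

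Among other proteins with a SOCS box, 15 of 26 with a probe were above background, 2 were at least 2-fold higher in CD4+ cells and 1 in CD8+ cells, with a median of -0.03. Asb7 was 3.28-fold higher in CD4+ cells, but 1.5-fold with normexp and with a log2 difference of -0.28 by its second probe. Asb2 was 2.09-fold higher there, with a log2 difference of -0.92 under median scaling, and Neurl2 was 2.37-fold higher in CD8+ cells and 1.85-fold with normexp. Of the 12 other inhibitors of JAK and STAT signalling with a probe, all above background, 0 passed 2-fold, with a median of 0.03. The adaptor gene Sh2b3 (0.47) and the phosphatase genes Ptpn6 (0.35) and Ptpn1 (-0.20) had the largest differences, and Ptpn1 turned positive by its second probe.

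The labels were checked on the genes of the surface proteins behind them, with Cd8a 105.6-fold higher in CD8+ cells and Cd4 4.12-fold (2.58-fold with normexp) higher in CD4+ cells. Markers of all T cells (7 genes, median 0.09) and of naive T cells (7 genes, median 0.14) held 0 genes beyond 2-fold. The helper marker list that holds Cd4 had 3 of 3 genes at least 2-fold higher in CD4+ cells, 1 by a bound, with a median of -2.43. The cytotoxic list that holds Cd8a had 3 of 3 genes with a probe higher in CD8+ cells, with a median of 3.83. Regulatory T cell markers also lay on the CD4+ side by their median, apart from Ikzf4 at 0.05. Of the 8 regulatory T cell genes, 5 were above background on both arrays, with 3 of them at least 2-fold higher in CD4+ cells, 0 in CD8+ cells and a median of -2.55. The other 3 were above background in CD4+ cells alone, each with a bound of 2-fold or more. The summed level of the list, in units of each array's 75th percentile, was 86.3 in CD4+ and 39.4 in CD8+ cells. Tnfrsf18 made up 65.5 and 35.9 of it without passing 2-fold, and the other 7 genes summed to 20.8 and 3.55. Such sums add signals of different probes, which depend on the probe, so they do not measure amounts of RNA or cells. Foxp3, Il2ra and Nrp1 were not well above background in CD8+ cells. The other lists on the CD4+ side were NK cells (3 of 4 genes above background beyond 2-fold, median -1.65, summed levels 21.1 and 9.27, of which the 4 genes other than Tyrobp made up 1.12 and 0.38), dendritic cells (3 of 5, -1.31, 5.84 and 2.35, of which Itgax 4.32 and 1.74), plasma cells (2 of 5, -0.73, 5.10 and 3.27, of which Mzb1 2.25 and 1.81) and monocytes and macrophages (2 of 5, -0.47, 28.6 and 22.6, of which Adgre1 18.2 and 13.1). B cell markers (0 of 7, median 0.76, summed levels 18.8 and 29.3, of which Cd79b 11.4 and 20.4) lay on the CD8+ side. So did platelet markers (1 of 4 by a bound, 0.69, or 0 of 3 and 0.61 over those on both arrays). Neutrophil (0 of 3, -0.03) and erythroid markers (0 of 2, -0.14) lay near 0. The part of these cells in the differences of Cish and Socs2 was not tested.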

How the data were processed

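Total RNA was labelled with Cy3 and hybridised to 1 array per cell type, per the labels' protocols. The deposited scanner files hold a linear intensity per spot, background-subtracted and detrended by Feature Extraction 10.1.1.1, per the file headers (version 9.1 per the submitters' processing notes), with no scaling between arrays. The authors' series values equalled the median pixel intensity at 45018 of 45018 spots on each array.

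From these, the processed signal of the 43379 non-control spots was put on a log2 scale and the 75th percentile of its array subtracted. Spots marked as outliers (99 and 92) were left out on both arrays, and saturated spots (212 each) were kept. Well above background were 63.1% of the CD4+ and 58.6% of the CD8+ spots. Spots of a probe were averaged, and a gene took its brightest probe, with preference for one above background on both arrays. Probes were named by transcript accession in RefSeq, assembly GRCm38.p6, for names alone since the headers name another build: 24840 of 41170 matched 1 symbol. All 8 members and the pathway genes past 2-fold, or up to 3 per list where fewer than 3 passed, were named, apart from the genes said to be named by value, those given for their role and the label checks. With 2 arrays no likeness of pattern to other genes could be measured. Members and lists were chosen with earlier results of these data known. With so few arrays the precision is low and no p-value was given. The computation was tested on simulated data. Python 3.11.15, numpy 2.4.6, pandas 2.3.3, matplotlib 3.10.9, R 4.3.3 and limma 3.58.1 were used.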

Additional observations from a re-analysis of the deposited data

How the results depend on the processing

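Differences were recomputed under 12 other settings and the counts of SOCS members also with 1.5-fold and 4-fold thresholds. Cish was 4.43-fold to 5.04-fold and Socs2 3.85-fold to 7.87-fold higher in CD4+ cells in every setting that gave a value, and both passed 4-fold in the main setting. With brighter probes alone, which left 4 members and took out Socs2, 1 member passed 2-fold in CD4+ cells. With no filter on dim probes, 1 member, the undetected Socs7, passed in CD8+ cells. The family's median stayed within 0.23 of its value throughout. Of 106 pathway genes above background on at least 1 array, 11 passed 2-fold in CD4+ cells and 3 in CD8+ cells, bounds counted. By the same count 609 (4.66%) and 288 (2.21%) of all 13058 genes passed. For the other settings, all genes were counted only where measured on both arrays, without bounds (458 and 232 of 11957 in the main setting). Those counts are therefore not like the pathway counts. With normexp (offset 50) the pathway counts were 5 and 1 of 106 (all genes 219 and 122 of 11957). They were 5 and 1 of 106 with the series values (268 and 140 of 11957). With brighter probes alone they were 1 and 1 of 64 (98 and 80 of 6728). In CD4+ cells 17 of 124 passed with no filter (all genes 1277 of 17176) and 7 of 106 with the second brightest probe (408 of 11684). An added offset, as with normexp, or unsubtracted background, as in the series values, shrinks the folds of dim spots by construction. Where brightness, detection or background was not the setting's own construction, the cause was not tested. The planned normexp correction ran on median signals, since the files hold no mean signal. Dim spots limit Socs2, whose CD8+ signal was 48.9, and Socs7. No paired analysis was possible because each cell type has 1 array.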
